A study of Mus musculus with 9 samples.

Results

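Lower glycolysis is described here by 10 genes: Aldoa, Aldoc, Tpi1, Gapdh, Pgk1, Pgam1, Eno1, Eno2, Pkm and Ldha. Every probe set whose platform annotation named one of these symbols was taken, which gave 16 probe sets of 8 genes with exactly 1 symbol among the 22626 probe sets tested, of 22690 on the array. Another 2 probe sets named Gapdh together with other symbols, and 3 control probe sets were annotated to Gapdh; these 5 are given apart. The 8 genes are among 12393 with such a probe set. No probe set was annotated to Eno1 in the table used here, so Eno1 was not analysed here. The RNA came from N1E-115, a mouse neuroblastoma cell line. The 3 groups of 3 arrays each were cells overexpressing mouse Tcof1, cells in which Tcof1 was knocked down, and cells with wildtype Tcof1. Tcof1 encodes treacle, a nucleolar protein of ribosomal RNA gene transcription. The sources used here give neither how Tcof1 was raised or lowered nor whether arrays A, B and C of a group were separate cultures, so each p-value reflects array-to-array spread alone, possibly technical.

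Glycolysis splits glucose into pyruvate in the cytosol. In its lower part aldolase cleaves fructose bisphosphate, triose phosphate isomerase interconverts the products, and the steps from glyceraldehyde phosphate to pyruvate yield ATP and NADH; lactate dehydrogenase then turns pyruvate into lactate and regenerates NAD. Aldolase A (Aldoa) and enolase 1 are the widely expressed isoforms, while aldolase C (Aldoc) is the brain isoform and enolase 2 (Eno2) is the neuron-specific enolase used as a marker of neurons and neuroendocrine tumours. Many of these genes are known targets of the hypoxia-inducible factor HIF, whose binding element carries the core RCGTG, where R is A or G.

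In cells overexpressing Tcof1, the brain isoform Aldoc, the neuronal isoform Eno2 and the housekeeping genes Aldoa and Pgk1 were lower than in wildtype cells. No change was detected there for Tpi1, Pgam1, Pkm or Ldha. The fall was 5.57-fold for Aldoc and 3.58-fold for Eno2, against 1.58-fold to 1.73-fold over the 4 Aldoa probe sets. All 4 Aldoa probe sets passed, but the brightest Pgk1 probe set did not. No Pgk1 probe set passed under an alternative fit given below. In knockdown cells none of the 16 probe sets passed against wildtype, where only 0.0133% of all tested probe sets were called. Between overexpressing and knockdown cells, 12 of 16 passed, all lower in overexpressing cells, against 4.14% of all called lower. Tpi1 and Pgam1 were added in that comparison.

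The values are the authors' deposited linear intensities, already scaled per array, with array medians of 164.1 to 185.95. Log2 fold changes ± SE come from a limma fit on log2(intensity + 16) across all tested probe sets, with Benjamini-Hochberg adjustment over all of them, and probe sets were called below an adjusted p of 0.05. Arrays of a group correlated at 0.972 to 0.978 in log2 values, and arrays of different groups at 0.956 to 0.978. Of the 3 Tcof1 probe sets, 1 passed as higher in overexpressing over wildtype cells (1423600_a_at, 0.87 ± 0.21, adjusted p = 0.0241), 0 passed in knockdown over wildtype, and 2 passed in overexpressing over knockdown cells. A reduction of Tcof1 in the knockdown group was therefore not detected. Of 9 measured sympathoadrenal markers, 8 (all but Ddc) lay above the median of all probe sets. Most markers of fibroblasts (6 of 7), Schwann cells and glia (5 of 6) and blood and immune cells (5 of 6) lay below it.

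The 250 bases before an annotated start are printed for Aldoc and Eno2, which changed most, to show what the windows before the start sites hold. Also printed are the windows of Pgk1 and Ldha, which hold most matches to ACGTG. They are from RefSeq on GRCm38.p6, in which all 10 genes matched, with 17 start sites. They lie at chr11:78322823-78323072 on the plus strand for the upstream of the 2 Aldoc starts and chr6:124769674-124769923 on the minus strand for Eno2. Those of the other two are chrX:106186850-106187099 for Pgk1 and chr7:46845554-46845803 for the upstream of the 2 Ldha starts, both on the plus strand. Capitals mark ACGTG or its reverse complement CACGT, where matches may overlap.
Aldoc: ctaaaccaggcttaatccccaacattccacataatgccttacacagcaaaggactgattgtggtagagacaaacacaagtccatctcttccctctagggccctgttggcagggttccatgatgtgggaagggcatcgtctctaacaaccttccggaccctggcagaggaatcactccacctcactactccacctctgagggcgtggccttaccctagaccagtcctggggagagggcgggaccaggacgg
Eno2: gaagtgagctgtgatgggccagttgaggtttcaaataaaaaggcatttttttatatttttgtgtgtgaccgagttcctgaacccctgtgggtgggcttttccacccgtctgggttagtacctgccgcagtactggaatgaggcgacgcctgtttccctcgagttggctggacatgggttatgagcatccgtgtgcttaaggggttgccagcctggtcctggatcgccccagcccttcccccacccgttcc
Pgk1: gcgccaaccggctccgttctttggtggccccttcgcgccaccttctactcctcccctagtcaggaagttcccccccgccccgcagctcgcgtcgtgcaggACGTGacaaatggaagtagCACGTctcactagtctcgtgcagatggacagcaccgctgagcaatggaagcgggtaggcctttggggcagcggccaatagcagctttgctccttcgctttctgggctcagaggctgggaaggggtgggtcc
Ldha: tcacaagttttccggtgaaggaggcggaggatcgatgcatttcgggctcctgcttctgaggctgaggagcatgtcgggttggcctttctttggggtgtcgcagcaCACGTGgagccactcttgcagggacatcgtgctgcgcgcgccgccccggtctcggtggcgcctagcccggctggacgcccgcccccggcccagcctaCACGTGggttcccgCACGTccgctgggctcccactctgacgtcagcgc

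The letters ACGTG, searched on both strands, were in 6 of the 17 windows of the 10 genes, against 16.6% of 32851 windows of the same length over all genes. The Ldha window held 5 matches, beginning 145, 144, 48, 47 and 34 bases before the start. The first 4 of these overlap in pairs as the palindrome CACGTG, which 6.02% of all windows hold. The Pgk1 window held 2, beginning 150 and 131 bases before the start, and 1 each was found before Pgam1 and before 1 of 2 Pkm starts. The windows of 2 of the 3 Aldoa starts overlap and share 1 match. Neither Aldoc window nor the Eno2 window held ACGTG. The other form of the core, GCGTG, was not searched for or capitalised in any window, so its share over all windows is not given. The printed Aldoc window does hold GCGTG, in lower case, so lacking ACGTG does not mean that it lacks the core RCGTG. The matches are a description of these windows and not binding sites. In the same assembly Eno2, Tpi1 and Gapdh lie on chromosome 6, with 2 protein-coding genes between Eno2 and Tpi1 and 18 between Tpi1 and Gapdh.

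**Figure D1:**
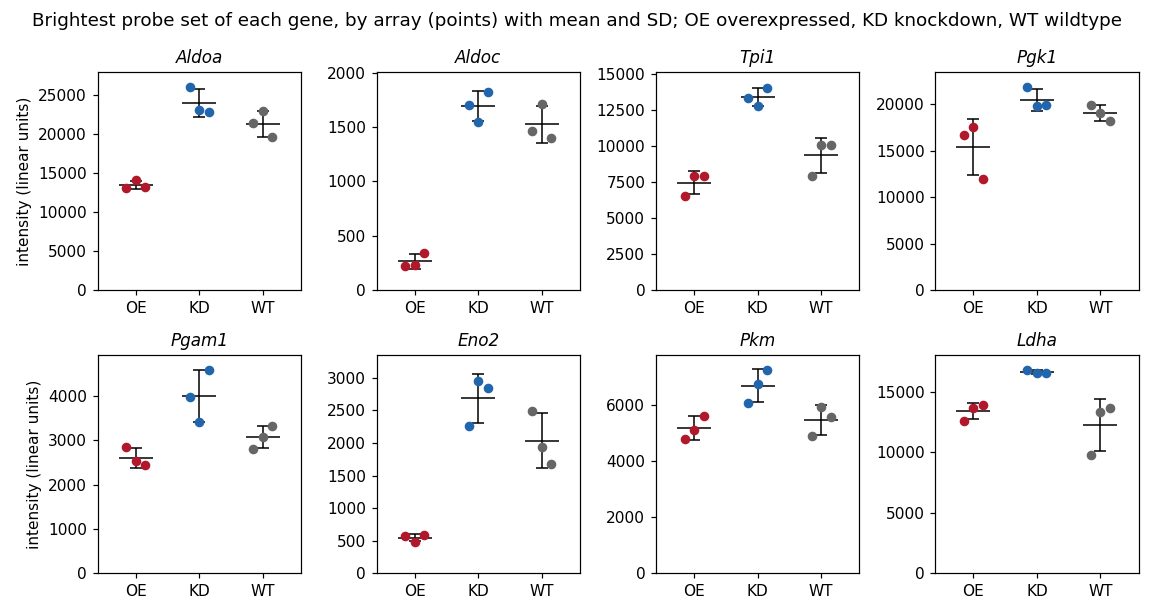
Linear intensity of the brightest single-symbol probe set of each of 8 genes on each array (points), with group mean and SD (n = 3); OE is overexpressed, KD knockdown and WT wildtype. Aldoc and Eno2, at 219.7 to 340.0 and 488.2 to 584.1 in overexpressing arrays, lie below all knockdown and wildtype arrays and have the lowest fitted ratios of overexpressed to wildtype of the 8 genes, 0.18 and 0.279.

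Aldolase was represented by both isoforms. The Aldoc probe set 1451461_a_at read 219.7, 233.2 and 340.0 in overexpressing arrays A, B and C, 1704, 1544 and 1822 in knockdown arrays, and 1461, 1715 and 1395 in wildtype arrays. The overexpressing arrays lay far below all others, and the knockdown and wildtype arrays overlapped. The change was -2.48 ± 0.15 in overexpressed over wildtype (adjusted p = 3.4e-05) and -2.63 ± 0.15 in overexpressed over knockdown (adjusted p = 3.07e-05) in the limma fit. In knockdown over wildtype it was 0.15 ± 0.15 (adjusted p = 0.772), with a 95% interval of -0.19 to 0.49. The second Aldoc probe set, 1424714_at, read 3.8 to 26.9 in overexpressing, 6.8 to 22.9 in knockdown and 4.4 to 12.4 in wildtype arrays. Those values are mostly below the 16 added before the log and gave no call in any comparison, with adjusted p from 0.768 to 0.986, so the Aldoc result rests on 1 probe set. In these bulk samples fewer cells of a type and less RNA per cell cannot be told apart.

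Aldoa, the housekeeping aldolase, had 4 probe sets, all of the _x_at type, whose probes may also match other transcripts. The brightest, 1416921_x_at, read 13033, 14068 and 13207 in overexpressing arrays, 25921, 23058 and 22785 in knockdown arrays, and 21305, 22863 and 19612 in wildtype arrays. Overexpressing arrays did not overlap with either other group. Its change was -0.66 ± 0.10 in overexpressed over wildtype (adjusted p = 0.00228), and the other 3 Aldoa probe sets gave -0.79 ± 0.11, -0.71 ± 0.10 and -0.78 ± 0.12 (adjusted p = 0.00164 to 0.00343). In overexpressed over knockdown the 4 gave -1.003 to -0.73 (adjusted p = 0.00102 to 0.00266). Against wildtype the knockdown gave 0.02 to 0.22, with adjusted p from 0.551 to 0.954, and all 4 had overlapping groups.

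Tpi1, triose phosphate isomerase, had 3 probe sets that ran alike. The brightest, 1452927_x_at, read 6568, 7932 and 7903 in overexpressing arrays, 13303, 12794 and 14054 in knockdown arrays, and 7917, 10086 and 10048 in wildtype arrays. In that set the knockdown arrays stood above all others, and wildtype array A lay among the overexpressing arrays. In 1415918_a_at and 1435659_a_at, by contrast, all overexpressing arrays lay below all wildtype arrays. All 3 passed in overexpressed over knockdown, at -0.84 ± 0.12, -0.75 ± 0.11 and -0.84 ± 0.11 (adjusted p = 0.00224 to 0.00296). Against wildtype none passed: the overexpressed values were -0.37 to -0.32 (adjusted p = 0.0578 to 0.119) and the knockdown values 0.39 to 0.52 (adjusted p = 0.148 to 0.253). Without wildtype array A, 2 of the 3 passed in overexpressed over wildtype, with adjusted p = 0.0352 for 1415918_a_at and 0.0364 for 1452927_x_at.

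Pgk1, the first ATP-forming kinase of the pathway, also had 3 probe sets, which differed in size of change. The set 1417864_at read 10850, 11028 and 11048 in overexpressing arrays, 16989, 17140 and 17688 in knockdown arrays, and 14037, 15308 and 14612 in wildtype arrays. The 3 groups did not overlap, with knockdown highest and overexpressing lowest. Its change was -0.42 ± 0.08 in overexpressed over wildtype (adjusted p = 0.00808) and -0.65 ± 0.08 in overexpressed over knockdown (adjusted p = 0.00123), and 0.24 ± 0.08 in knockdown over wildtype (adjusted p = 0.311). Without the mean-variance trend in the fit no Pgk1 probe set passed in overexpressed over wildtype, with adjusted p = 0.0509 for 1417864_at and 0.083 for 1439435_x_at. The set 1439435_x_at changed by -0.73 ± 0.18 in overexpressed over wildtype (adjusted p = 0.0285), a call also lost without overexpressed array A or C (adjusted p = 0.101 and 0.0923) or wildtype array B or C (adjusted p = 0.109 and 0.0766). The brightest, 1438640_x_at, read 11906 in overexpressing array C against 16716 and 17527 in the other two, and passed in no comparison, at -0.33 ± 0.14 in overexpressed over wildtype (adjusted p = 0.174).

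Pgam1, phosphoglycerate mutase, read 2843, 2519 and 2435 in overexpressing arrays, 3977, 3399 and 4570 in knockdown arrays, and 2809, 3080 and 3319 in wildtype arrays. The knockdown arrays were highest, and overexpressing and wildtype arrays overlapped. It was lower in overexpressed over knockdown at -0.61 ± 0.12 (adjusted p = 0.0123), a call lost with a common array median (-0.54, adjusted p = 0.0567) and without the trend (adjusted p = 0.058). Against wildtype it was at -0.24 ± 0.12 in overexpressing cells (adjusted p = 0.256) and 0.37 ± 0.12 in knockdown cells (adjusted p = 0.301).

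Eno2, neuron-specific enolase, had 1 probe set, 1418829_a_at. It read 577.6, 488.2 and 584.1 in overexpressing arrays, 2253, 2952 and 2842 in knockdown arrays, and 2492, 1936 and 1673 in wildtype arrays. Overexpressing arrays lay below all others, and knockdown and wildtype arrays overlapped. The change was -1.84 ± 0.15 in overexpressed over wildtype (adjusted p = 0.000206) and -2.25 ± 0.15 in overexpressed over knockdown (adjusted p = 6.54e-05). In knockdown over wildtype it was 0.41 ± 0.15 (adjusted p = 0.371), with a 95% interval of 0.07 to 0.74 that is not adjusted for the number of probe sets.

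The last steps gave no call in any comparison of the fit with all 9 arrays, though both genes passed in overexpressed over knockdown under some alternatives. Pkm, which makes pyruvate and ATP, read 4798, 5111 and 5639 in overexpressing arrays, 6079, 6767 and 7264 in knockdown arrays, and 4909, 5939 and 5578 in wildtype arrays. Overexpressing and wildtype arrays overlapped and the knockdown arrays were the highest. The values for Pkm were -0.08 ± 0.10 in overexpressed over wildtype (95% interval -0.31 to 0.15), 0.29 ± 0.10 in knockdown over wildtype (adjusted p = 0.351) and -0.37 ± 0.10 in overexpressed over knockdown (adjusted p = 0.0557). The last of these passed with the dimmest 40% of probe sets left out (adjusted p = 0.0284) and without wildtype array A (adjusted p = 0.036). The probe set does not tell the splice forms of Pkm apart in these files.

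Ldha, the lactate dehydrogenase subunit that favours lactate formation, read 12634, 13670 and 13887 in overexpressing arrays, 16837, 16608 and 16542 in knockdown arrays, and 9811, 13364 and 13686 in wildtype arrays. The knockdown arrays were highest and close together, and wildtype array A was the lowest of the 9. In overexpressed over wildtype Ldha was at 0.14 ± 0.12 (adjusted p = 0.584, 95% interval -0.13 to 0.41), and at -0.01 without wildtype array A. It was at 0.45 ± 0.12 in knockdown over wildtype (adjusted p = 0.235) and -0.32 ± 0.12 in overexpressed over knockdown (adjusted p = 0.154), which passed with only those 2 groups in the fit (adjusted p = 0.0467) and without wildtype array A (adjusted p = 0.0295).

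**Figure D2:**
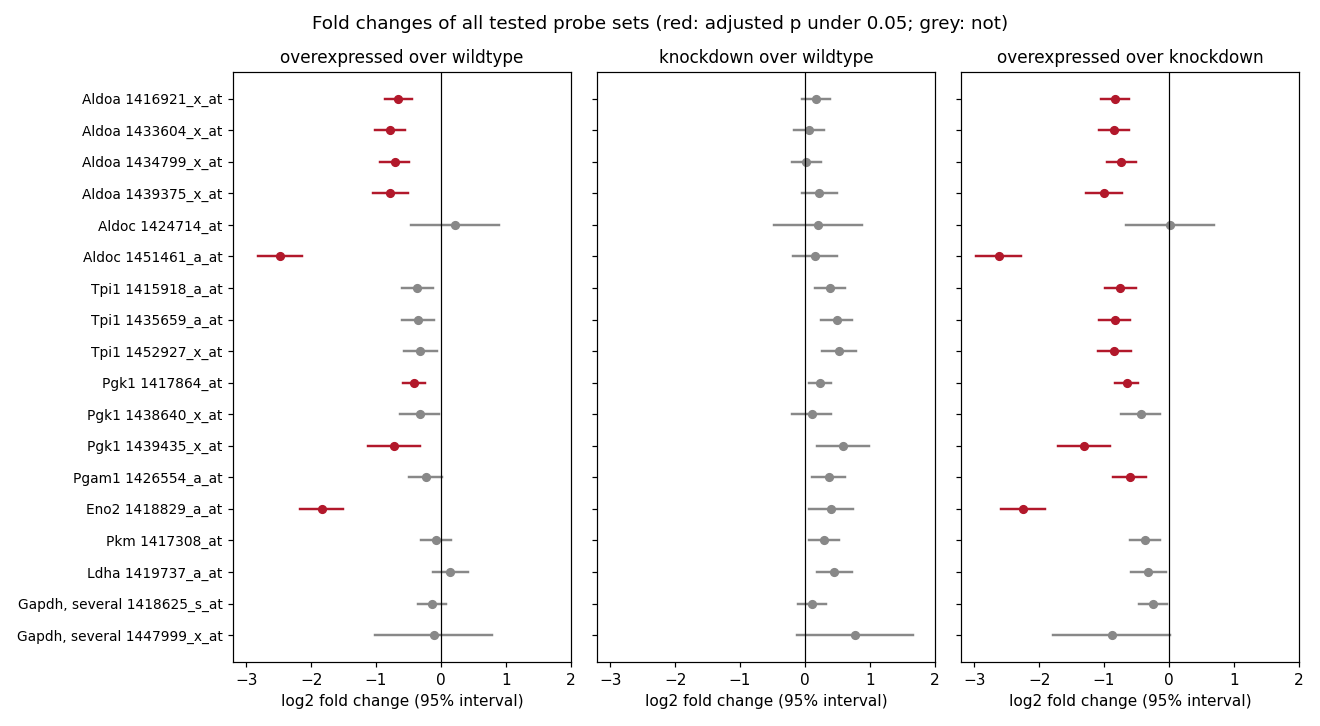
Log2 fold change with its 95% interval for the 16 single-symbol probe sets and the 2 Gapdh probe sets with several symbols, in 3 comparisons; red marks adjusted p under 0.05 and grey the rest. In overexpressed over wildtype 8 of the 16 are red, in knockdown over wildtype 0, and in overexpressed over knockdown 12.

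Counted over probe sets, 8 of 16 fell in overexpressed over wildtype, from the 4 genes Aldoa, Aldoc, Pgk1 and Eno2, and 0 rose. Over all tested probe sets 9.59% were called, of which 5.07% fell and 4.52% rose as shares of all tested. These shares include dim probe sets, while most member sets are bright. With the dimmest 40% left out, 2703 of the probe sets kept were called, 1384 of them lower, and 10 member sets were called. The groups did not overlap downward for 11 of the 16, against 14.4% of all. In overexpressed over knockdown, 12 of 16 fell, from 6 genes, against 7.57% of all called (4.14% that fell and 3.43% that rose), and 15 of 16 did not overlap downward, against 15.2%. With a common array median, 57.5% of the probe sets called in that comparison went up, against 45.3% as deposited, and 11 of the 16 fell. Between knockdown and wildtype limma called 0 of 16, with 9 of 16 at an unadjusted p under 0.05, against 0.0133% of all probe sets called and 10.9% at an unadjusted p under 0.05. There 8 of 16 did not overlap upward, against 8.63% of all. The comparisons share arrays pairwise, and probe sets of 1 gene share its transcripts, so these counts are not independent of each other.

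With 1 brightest probe set per gene, the median over the 8 genes was -0.32 in overexpressed over wildtype (from -2.48 to 0.14), 0.33 in knockdown over wildtype (0.10 to 0.52) and -0.72 in overexpressed over knockdown (-2.63 to -0.32). The medians over all tested probe sets were -0.02, 0.03 and -0.05 in the same order. Within the 8 genes, log2 values over the 9 arrays, which are 3 groups of 3, had Pearson r of 0.97 between Aldoc and Eno2, 0.96 between Aldoa and Aldoc, and 0.91 between Tpi1 and Pkm. Ldha had r of 0.17 to 0.33 with Aldoa, Aldoc, Eno2 and Pgk1, and 0.80 with Pkm. These are descriptions over arrays that share the group structure.

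The brain and housekeeping aldolases were compared within each array, as the log2 value of Aldoc minus that of Aldoa. Set to 0 at the wildtype mean, this difference changed by -1.82 in overexpressed over wildtype, with groups that did not overlap, by -1.80 in overexpressed over knockdown, again without overlap, and by -0.02 in knockdown over wildtype, with overlap. The exact two-sided permutation test gave p = 0.1, 0.1 and 0.9 (n = 3 arrays each), and 0.1 is the smallest p that 3 arrays against 3 can give. With the mean of all probe sets per gene, which for Aldoc averages the bright set with the dim 1424714_at, the difference was -0.39 in overexpressed over wildtype and -0.45 in overexpressed over knockdown (exact permutation p = 0.3 each). The size of the aldolase difference therefore depends on using the bright Aldoc set. The Aldoa set used read 13033 to 25921 over the arrays, and the Aldoc set 219.7 to 1822. The highest value on an array was 28181 to 34106. Intensities can flatten towards it, which would make the Aldoa change look smaller, and this was not tested. The planned comparison of Eno2 with Eno1 could not be made without an Eno1 probe set. Eno2 was therefore set against the enzymes before and after enolase, a choice made after the annotation was seen.

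Eno2 minus Pgam1 changed by -1.60 in overexpressed over wildtype and -1.64 in overexpressed over knockdown, and Eno2 minus Pkm by -1.76 and -1.88, all without overlap (exact permutation p = 0.1 each). The same 2 differences were 0.04 and 0.11 in knockdown over wildtype (exact permutation p = 1.0 and 0.7). Over the 9 comparisons the smallest Benjamini-Hochberg adjusted p was 0.15, so none could pass. The differences show unequal change between 2 probe sets and not a ratio of transcript levels.

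**Figure D3:**
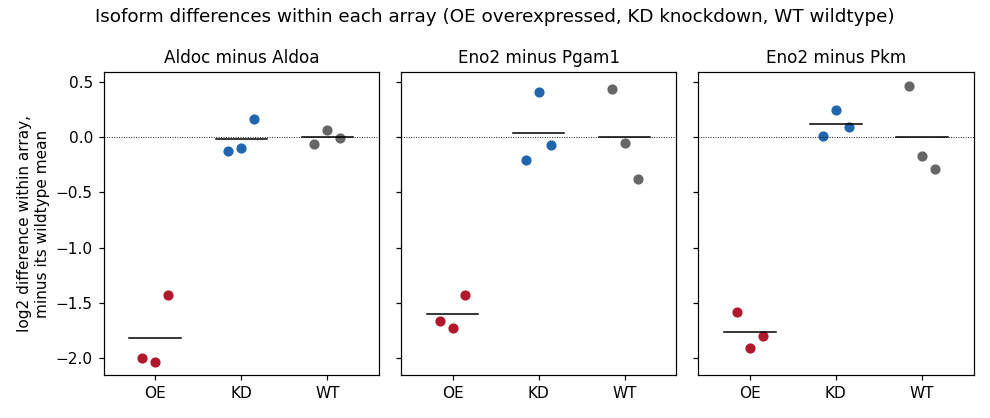
Log2 difference between 2 genes within each array (points), after subtracting its wildtype mean, with group means as bars; OE is overexpressed, KD knockdown and WT wildtype. All 3 overexpressing arrays lie below the others in each panel, while knockdown and wildtype arrays overlap.

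Gapdh, glyceraldehyde phosphate dehydrogenase, is often used as a reference gene. Its bright probe set 1418625_s_at, annotated to Gapdh and 4 other symbols, read 24669, 27280 and 28185 in overexpressing arrays, 30242, 32697 and 31625 in knockdown arrays, and 29093, 31405 and 27602 in wildtype arrays. Overexpressing and wildtype arrays overlapped, as did knockdown and wildtype arrays, and overexpressing lay below knockdown. It gave -0.14 ± 0.10 in overexpressed over wildtype (adjusted p = 0.473), 0.10 ± 0.10 in knockdown over wildtype (adjusted p = 0.743) and -0.24 ± 0.10 in overexpressed over knockdown (adjusted p = 0.169). The probe set read 86.9% to 98.8% of the highest value on its array, where intensities can flatten, and this was not tested. A dim probe set annotated to Gapdh and 1 other symbol, 1447999_x_at, read 69.6 to 294.6 over the 9 arrays and gave no call. Both passed in overexpressed over knockdown under 1 alternative each, the bright set with the dimmest 40% of probe sets left out (adjusted p = 0.0423) and the dim set without knockdown array A (-1.38, adjusted p = 0.0424).

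The control probe sets for the 3' end, middle and 5' end of Gapdh averaged 15360 ± 808, 19328 ± 301 and 19866 ± 1164 in overexpressing arrays (SD, n = 3). They averaged 17262 ± 592, 23232 ± 1332 and 21886 ± 1281 in knockdown arrays, and 16122 ± 610, 20651 ± 823 and 21124 ± 497 in wildtype arrays. The middle set was the one whose 3 groups did not overlap, at -0.09 in overexpressed over wildtype, 0.17 in knockdown over wildtype and -0.26 in overexpressed over knockdown (exact permutation p = 0.1 each). The log2 difference of the 3' minus the 5' set, a sign of RNA integrity, was -0.37 ± 0.07 in overexpressing, -0.34 ± 0.05 in knockdown and -0.39 ± 0.05 in wildtype arrays, with overlap throughout (exact permutation p = 0.3 to 0.7). For the Actb controls it was 0.00 ± 0.03, -0.07 ± 0.06 and -0.06 ± 0.09 in the same order (exact permutation p = 0.2 to 0.9). Over these 15 comparisons the smallest adjusted p was 0.375.

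**Figure D4:**
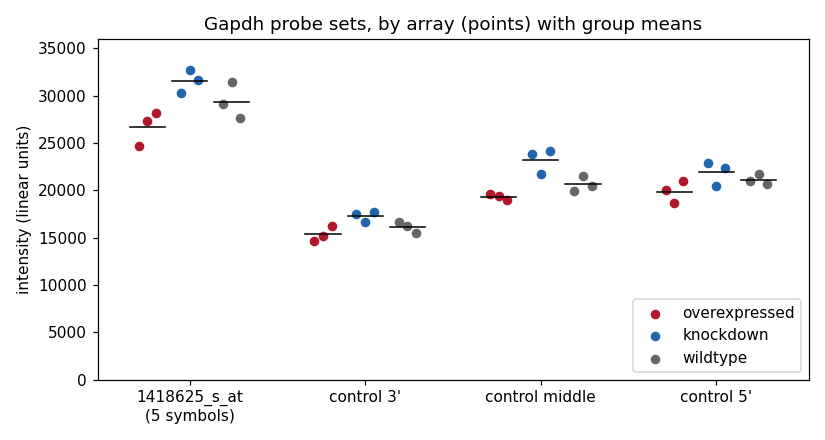
Linear intensity of the bright Gapdh probe set with 5 symbols and of the Gapdh control probe sets, by array (points), with group means as bars. The groups overlap or lie close together, and the control for the middle of the transcript reads 19006 to 19602 in overexpressing, 21710 to 24186 in knockdown and 19923 to 21545 in wildtype arrays.

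Other isoforms of the same steps, listed with the related mutase gene Bpgm, gave no call. Of 8 measured genes (Eno3, Pgam2, Ldhb, Pgk2, Gapdhs, Pklr, Ldhc and Bpgm), 0 passed in any of the 3 limma comparisons, with list medians of 0.08, 0.18 and -0.15 in the order overexpressed over wildtype, knockdown over wildtype, overexpressed over knockdown. Their adjusted p ran from 0.55 for Bpgm upward in overexpressed over wildtype. Muscle phosphoglycerate mutase, Pgam2, was at 0.18 ± 0.23 there, and the liver and red cell pyruvate kinase gene, Pklr, at 0.14 ± 0.21. Muscle enolase, Eno3, at -0.09 ± 0.23, and the lactate dehydrogenase B gene, Ldhb, at -0.08 ± 0.32, are named after their values were seen.

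For this and the lists below, 5.07% of all tested probe sets were called lower and 4.52% higher in overexpressed over wildtype. The shares were 4.14% and 3.43% in overexpressed over knockdown, and 0.0133% were called in knockdown over wildtype. Of 11 measured genes of glucose uptake, upper glycolysis and lactate export, 3 fell and 0 rose in overexpressed over wildtype, with a list median of -0.36. They were Pfkm, a phosphofructokinase, at -0.72 ± 0.10 (adjusted p = 0.00212), the neuronal glucose transporter gene Slc2a3 at -0.68 ± 0.09 (adjusted p = 0.00184) and the monocarboxylate transporter gene Slc16a1 at -0.64 ± 0.12 (adjusted p = 0.00838). Hk1, a hexokinase, did not pass (-0.36 ± 0.11, adjusted p = 0.0703). In overexpressed over knockdown 6 fell and 0 rose, with a list median of -0.73. Of these, Slc2a1, Pfkl, Hk2 and Slc16a3 (-1.22, -0.81, -0.76 and -0.73) are named after their values were seen. None of the 11 passed in knockdown over wildtype by limma, with a median of 0.05, a highest value of 1.02 ± 0.15 for Hk2 and its adjusted p = 0.0701.

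Of 10 measured genes of mitochondrial pyruvate uptake, conversion and its control, 1 fell and 0 rose in overexpressed over wildtype. The shares over all probe sets were 5.07% and 4.52%, and the list median was -0.04. The gene that fell was pyruvate carboxylase, Pcx (-0.82 ± 0.15, adjusted p = 0.00832). In overexpressed over knockdown 2 fell, Pcx at -1.04 ± 0.15 (adjusted p = 0.00357) and the pyruvate dehydrogenase kinase gene Pdk1 at -1.47 ± 0.29 (adjusted p = 0.0138), the second named after its value was seen. Of 13 measured HIF targets outside glycolysis, 8 fell and 0 rose in overexpressed over wildtype, with a median of -0.62, and 10 fell in overexpressed over knockdown, with a median of -1.01. The mitophagy gene Bnip3 was at -1.64 ± 0.25 (adjusted p = 0.00273) and -3.06 ± 0.25 (adjusted p = 0.000178) in these comparisons. The HIF prolyl hydroxylase gene Egln3 was at -0.98 ± 0.10 (adjusted p = 0.000499) and -1.62 ± 0.10 (adjusted p = 4.51e-05). By contrast, Egln1 was at 0.56 ± 0.17 (adjusted p = 0.062) and Higd1a at 0.15 ± 0.15 (adjusted p = 0.643) in overexpressed over wildtype. Both are named after their values were seen. By limma 0 of the 13 passed in knockdown over wildtype, where the median was 0.57, Bnip3 was at 1.42 ± 0.25 (adjusted p = 0.0918) and Egln3 at 0.64 ± 0.10 (adjusted p = 0.0701).

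Of 6 regulators of glycolytic genes (Hif1a, Epas1, Arnt, Vhl, Myc and Mycn), 0 passed against wildtype in either group. Mycn alone passed in overexpressed over knockdown, at -0.50 ± 0.11 (adjusted p = 0.021). Of 18 measured neuronal markers, 6 fell and 1 rose in overexpressed over wildtype, against 5.07% and 4.52% of all probe sets. Their median was -0.32. Acetylcholinesterase, Ache, was at -1.40 ± 0.14 (adjusted p = 0.000435), the adhesion molecule gene Nrcam at -1.03 ± 0.12 (adjusted p = 0.000806) and chromogranin A, Chga, at -0.75 ± 0.12 (adjusted p = 0.00309), while the dopamine hydroxylase gene Dbh rose by 0.60 ± 0.11 (adjusted p = 0.00769). The summed level of the 9 sympathoadrenal markers was 26855 to 30464 in overexpressing, 32252 to 34555 in knockdown and 30432 to 34382 in wildtype arrays. Chgb alone averaged 14492.5, 17919 and 17289 of these, so the sums mostly follow the brightest markers. Of the 9, 1 fell (Chga) and 1 rose (Dbh) in overexpressed over wildtype, with a median of -0.26. Gata3, Hand2 and Gata2, named after their values were seen, were at 0.97, 0.19 and 0.18 there and were not called. Of 9 other genes often used as references, 0 passed in any comparison, with medians of 0.04, -0.06 and 0.03. Single genes lay further from 0. By limma, Tfrc was at 0.70 ± 0.24 in overexpressed over wildtype (adjusted p = 0.0969) and Hprt at 0.36 ± 0.12 in knockdown over wildtype (adjusted p = 0.301). In overexpressed over knockdown, Tbp was at 0.39 ± 0.12 (adjusted p = 0.075) and Hprt at -0.25 ± 0.12 (adjusted p = 0.223).

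The summed level of 6 blood and immune markers also moved with the groups, at 649.7 to 751.4 in overexpressing, 1117 to 1141 in knockdown and 1271 to 1307 in wildtype arrays. Cd74 alone averaged 373.2, 791.7 and 928.3 of these, while the pan-leukocyte gene Ptprc read 17.6, 16.9 and 22.7. The part of these markers in the falls of Aldoc, Eno2 and the other members was not tested. The sums for 7 fibroblast markers were 398.9 to 539.6, 538.0 to 624.7 and 389.4 to 514.1, and for 6 Schwann cell and glia markers 464.6 to 607.5, 552.6 to 736.1 and 551.2 to 671.7, in the same order.

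**Figure D5:**
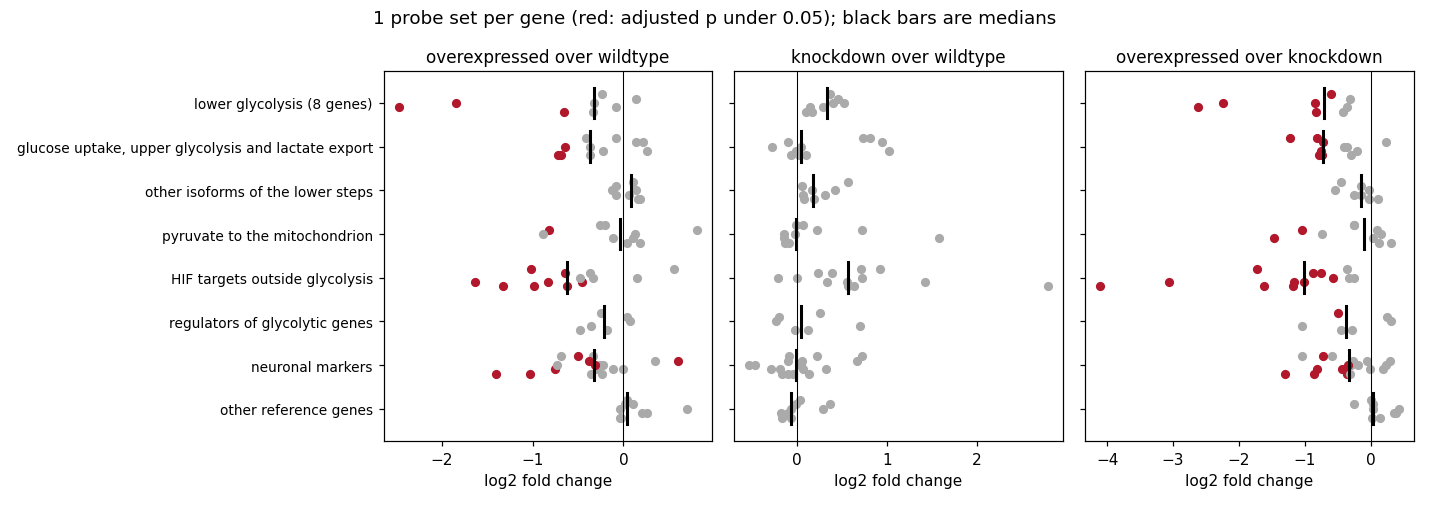
Log2 fold changes of 1 probe set per gene for the 8 lower glycolysis genes and 7 other gene lists, in 3 comparisons; red marks adjusted p under 0.05, grey the rest, and black bars are list medians. The lower glycolysis median is -0.32, 0.33 and -0.72 from left to right, and the reference gene median is 0.04, -0.06 and 0.03. Single reference genes lie further out, with Tfrc at 0.70 in overexpressed over wildtype.

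Among 6976 genes with a probe set above the median brightness, the patterns most like that of Aldoc over the 9 arrays belonged to Ech1, Dlk1, Ccng2, Oas1a and Tusc3, with Pearson r of 0.99 for each. Dlk1, an imprinted Notch-related membrane protein gene, was at -3.51 ± 0.16 in overexpressed over wildtype. Ech1, a peroxisomal and mitochondrial dienoyl-CoA isomerase gene, was at -1.21 ± 0.13. For Eno2 they were Hadh, P2rx4, Wnt11, Trappc6a and Rab28, with r from 0.987 to 0.996. Trappc6a was at -1.70 ± 0.17 and Hadh, a mitochondrial fatty acid oxidation enzyme gene, at -0.58 ± 0.08. The 9 points are 3 groups of 3 arrays, and the r values are a description with no test.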

How the data were processed

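Total RNA of N1E-115 cells was measured on 9 one-colour arrays with probe set names of the Affymetrix kind. The deposited table holds linear intensity values made by the authors, 1 per probe set and array; which software, background correction or annotation build was used is not stated in these sources. Trimming 2% at each end left an array mean of 500.18 to 500.2, so the deposited intensities had been scaled. There are no detection calls, and the number of arrays limits the precision.

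The 64 control probe sets were left out of the tests. Of 22626 others, 20380 had 1 symbol, 691 several and 1555 none; 20351 of the 20380 matched RefSeq gene identifiers. Array medians differed by a ratio of 1.13, under the limit of 1.2 for rescaling. limma 3.58.1 in R 4.3.3 (lmFit, then trended eBayes) modelled log2(intensity + 16) of all 9 arrays, with 3 contrasts and Benjamini-Hochberg adjustment over 22626 probe sets. On this scale the fold change of dim probe sets is understated. Single values used exact two-sided permutation tests.

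Genes named were all members and Tcof1. Each further list gave up to 4 genes with the smallest p in overexpressed over wildtype, and Aldoc and Eno2 the 5 genes most like each; others are marked. Members and lists were chosen with earlier results of these data known. Same-letter arrays of different groups had deviation correlations of -0.012 to 0.10 over 9 pairs, so letters were not used as pairs.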

Additional observations from a re-analysis of the deposited data

How the results depend on the processing

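The alternatives were array quality weights, a fit without the trend, pseudocounts of 1 and 64, a filter keeping sets brighter than percentile 40, rescaling to a common array median, quantile normalization, only the 2 groups compared, the letter as a replicate block, the mean of all probe sets per gene, and leaving out each array. The count of members called stayed between 6 and 10 in overexpressed over wildtype and between 11 and 14 in overexpressed over knockdown, and was 0 in knockdown over wildtype in each of the alternatives run for it. With the letter as a replicate block, 9 and 13 were called in the first and second. Over all probe sets, calls in overexpressed over wildtype were 1339 without the trend, 1090 without wildtype array B and up to 2404 with another array left out, against 2169 as reported. In overexpressed over knockdown they were 834 without the trend, 704 without overexpressed array A and up to 2048 with another array left out, against 1713. In knockdown over wildtype they were 46 with the brightness filter, 24 with array weights, 0 with the block and 103 without wildtype array C, against 3.

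The member median in overexpressed over wildtype was -0.42 with the mean of all probe sets per gene and -0.40 to -0.28 with 1 array left out. In overexpressed over knockdown it was -0.81 with that mean. In knockdown over wildtype it was 0.25 to 0.36 with 1 array left out.

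Sign changes concerned values near 0 that passed no test. In knockdown over wildtype, Aldoc minus Aldoa was 0.0153 with quantile normalization, 0.0588 with the mean of all probe sets (-0.39 and -0.45 in the overexpressed comparisons, against -1.82 and -1.80) and -0.11 to 0.0315 with 1 array left out; Eno2 minus Pgam1 was -0.15 to 0.26 and Eno2 minus Pkm -0.0311 to 0.35 with 1 array left out. Aldoa 1434799_x_at was there at -0.0114 with a common array median and -0.0052 with array weights. With 1 array left out, the dim Aldoc set 1424714_at was at -0.0862 to 0.47 in overexpressed over wildtype, -0.0388 to 0.35 in knockdown over wildtype and -0.29 to 0.27 in overexpressed over knockdown, where a pseudocount of 1 gave -0.0697. Likewise Gapdh 1447999_x_at was at -0.38 to 0.10 and Ldha at -0.0148 to 0.23 in overexpressed over wildtype, and in knockdown over wildtype Aldoa 1434799_x_at at -0.0491 to 0.10 and Aldoa 1433604_x_at at -0.0291 to 0.17. The 8 calls gained over all alternatives in overexpressed over wildtype were of Tpi1 probe sets, 1435659_a_at with the replicate block among them (adjusted p = 0.0395). Another 8 calls were gained in overexpressed over knockdown, by Pkm, Ldha, Pgk1 1438640_x_at and the several-symbol Gapdh sets, Pkm with the replicate block among them (adjusted p = 0.0308). Eno2 minus Eno1 was not run, since no probe set was annotated to Eno1, and the brightness filter removed the dim Aldoc set. No paired reading is made, since the same-letter correlations were -0.012 to 0.10. The cause of these changes was not tested.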
